A study of Mus musculus with 8 samples.

Results

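The circadian clock genes examined here were 10 core and output genes of the molecular clock: Arntl, Clock, Npas2, Per1, Per2, Per3, Cry1, Nr1d1, Nr1d2 and Dbp. They were found as the probes whose RefSeq name maps to these symbols, which gave 11 probes for the 10 genes, among 20128 genes with a symbol on the array. The data come from skin of C57BL/6N mice, measured on 8 single-colour arrays in a study of patchy hair loss after CRISPR/Cas9 editing of Cchcr1, a gene for a coiled-coil protein. The groups were wild type normal skin (n = 2 samples), Cchcr1 mutant normal skin (n = 4 samples) and Cchcr1 mutant hair loss skin (n = 2 samples). Sample titles start with Wild001 (both wild type samples), Mutant097 (hair loss replicate 1, mutant normal skin replicates 1 and 2) or Mutant113 (hair loss replicate 2, mutant normal skin replicates 3 and 4). The labels do not say whether such a number is an animal. The p-values therefore measure the spread between these samples, which may in part be technical. The wild type samples share a single number and may come from the same animal. The hour of sampling, the age of the mice and the edited allele are not given in the sources used here. Time of day therefore cannot be told apart from genotype or hair phenotype for genes of this kind.

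The clock is a feedback loop in transcription. ARNTL (also called BMAL1) pairs with CLOCK or NPAS2 and activates genes through E-boxes, among them the Per, Cry, Nr1d and Dbp genes. PER and CRY proteins then repress that pair, NR1D1 and NR1D2 (REV-ERB alpha and beta) repress Arntl through ROR elements, and DBP activates genes through D-boxes, where NFIL3 represses. In mouse tissues Arntl therefore runs in antiphase to Nr1d1 and Dbp over the day, and in skin clock output is known to vary with the hair growth cycle as well.

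Letter matches to the motifs named above, and to a further motif (CRE), were located first. Binding was not measured, and the genes are ordered in the results by their role in the loop. RefSeq windows (build GRCm38.p6) ran from 250 bases before to 50 bases after an annotated start. They were at hand for 9 of the 10 clock genes, with 13 windows in all. Per2 had no window and was not searched. Both strands were searched for the E-box CACGTG, the D-box written as TTATGTAA or TTACGTAA, the ROR element core TAGGTCA and the CRE TGACGTCA. An E-box lay in 2 of the 13 windows and in 7.15% of all 32851 windows. A D-box lay in 1 of 13 and in 1.06% of all, a ROR core in 1 of 13 and in 2.61% of all, and a CRE in 0 of 13 and in 1.79% of all. A match is a description of letters, and no match says only that these letters are not in this window. The upstream 250 bases of Per1 and Per3 are shown because they hold an E-box and a pair of D-boxes, and those of Ciart, a repressor of the ARNTL and CLOCK pair from the wider list, because they hold 3 E-boxes. Capitals mark the motifs, and the sequences run 5′ to 3′ in the direction of the gene.
Per1, first start, chr11:69098699-69098948, plus strand: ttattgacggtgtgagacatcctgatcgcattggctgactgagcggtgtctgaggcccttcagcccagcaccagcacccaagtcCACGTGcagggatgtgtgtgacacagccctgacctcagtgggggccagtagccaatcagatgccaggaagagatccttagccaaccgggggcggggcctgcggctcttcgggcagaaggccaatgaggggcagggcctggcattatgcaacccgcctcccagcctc
Per3, chr4:151044666-151044915, minus strand: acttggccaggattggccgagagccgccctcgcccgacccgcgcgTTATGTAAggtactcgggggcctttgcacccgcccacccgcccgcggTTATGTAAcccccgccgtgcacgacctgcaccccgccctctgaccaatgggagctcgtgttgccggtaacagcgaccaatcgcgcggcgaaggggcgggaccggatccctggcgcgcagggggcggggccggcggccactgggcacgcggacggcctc
Ciart, chr3:95882229-95882478, minus strand: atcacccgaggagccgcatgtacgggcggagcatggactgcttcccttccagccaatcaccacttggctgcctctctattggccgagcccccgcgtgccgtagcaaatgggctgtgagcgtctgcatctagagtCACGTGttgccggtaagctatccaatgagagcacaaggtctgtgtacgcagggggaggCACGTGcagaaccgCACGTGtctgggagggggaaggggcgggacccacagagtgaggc

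Single sites with 10 bases on each side are given for the remaining genes described in the results whose windows hold a match. Arntl and Nfil3 carry a ROR core, which in Nfil3 reads on the opposite strand. Cry1, Bhlhe41 and Tef carry E-boxes, and Hlf, a relative of Dbp and Tef, carries a CRE. The plot of motif positions places all of them relative to the start.
Arntl, second start, chr7:113207531-113207557, plus strand: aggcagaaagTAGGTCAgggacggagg
Nfil3, chr13:52981035-52981061, minus strand: cgctcggaacTGACCTActaacacaca
Cry1, chr10:85185099-85185124, minus strand: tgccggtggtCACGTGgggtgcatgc
Bhlhe41, chr6:145865558-145865583, minus strand: gtacgttccgCACGTGagctgggtgc
Tef, first start, chr15:81802536-81802561, plus strand: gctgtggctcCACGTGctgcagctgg
Tef, second start, chr15:81811266-81811291, plus strand: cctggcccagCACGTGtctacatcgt
Hlf, chr11:90390909-90390936, minus strand: gtgcgggcccTGACGTCActcttgtcag

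**Figure D1:**
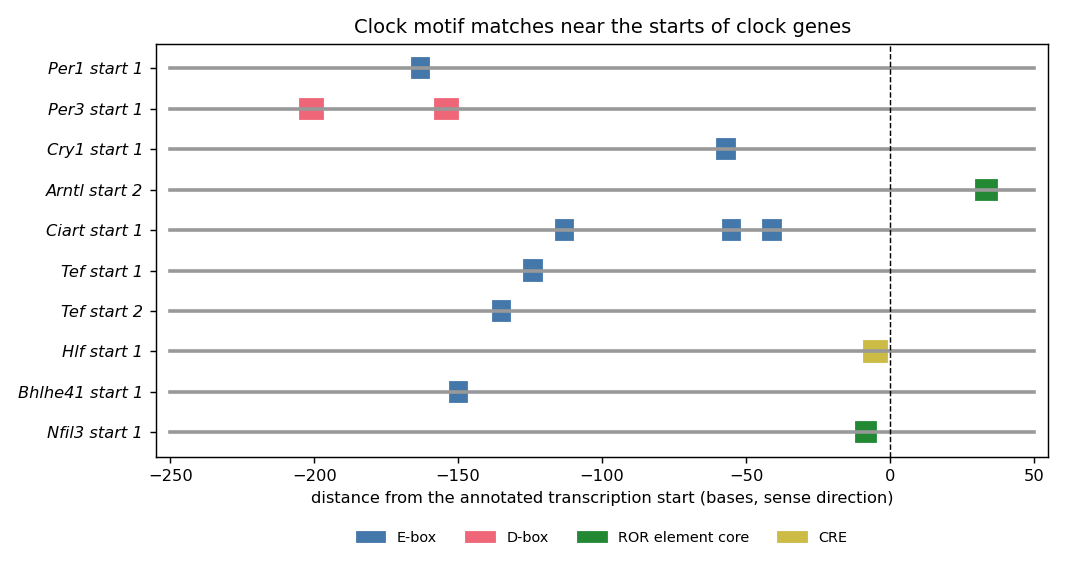
Positions of E-boxes, D-boxes, ROR element cores and a CRE in windows from 250 bases before to 50 bases after annotated starts (RefSeq, GRCm38.p6), with distance from the start in bases on the x axis and 1 line per window. Per3 holds D-boxes whose first bases lie at -205 and -158, Ciart E-boxes at -116, -58 and -44, and the ROR core of Arntl starts at 30, after the start.

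The arrays differed in brightness, with a 75th percentile of the processed intensity from 83.1 (wild type replicate 1) to 211.2 (hair loss replicate 2) and 25424 to 30205 probes well above background. All values given as levels are log2 intensities relative to that percentile of the same array, so 0 is the percentile itself. Of the 10 clock genes, 9 passed the filter of being well above background on at least 2 arrays, and Cry1 did not. Keratinocyte markers fixed for the tissue (Krt5, Krt14, Krt1, Krt10 and others) were well above background on every array for all 7 tested, with a summed log2 level of 10.54 to 10.95. Hair shaft and inner root sheath markers differed between the groups. Their summed log2 level was 2.89 to 3.46 in wild type, 9.20 to 11.4 in mutant normal skin and 10.8 to 12.04 in hair loss, with 8 to 10 of 14 genes above background in wild type and 14 of 14 in all mutant samples. Of the 14, 12 were called higher than wild type in both kinds of mutant skin by limma. Every clock gene difference from wild type therefore goes together with a difference in hair follicle content or state, whose part in the result was not tested. In bulk skin, fewer cells of a type and less RNA per cell cannot be told apart.

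Dbp, Per2, Per3, Nr1d1 and Nr1d2 were lower in all 6 mutant samples than in both wild type samples, and Arntl was higher in all 6. In the comparisons of the 3 groups Dbp alone passed the test, between hair loss and wild type, where it was 4.30-fold lower. Per1, Clock and Npas2 overlapped between wild type and mutant normal skin. Of the 9 genes tested, 5 were lower without overlap between all mutants and wild type, against 12.5% of the 30417 tested probes, and 1 was higher without overlap, against 11.8%.

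**Figure D2:**
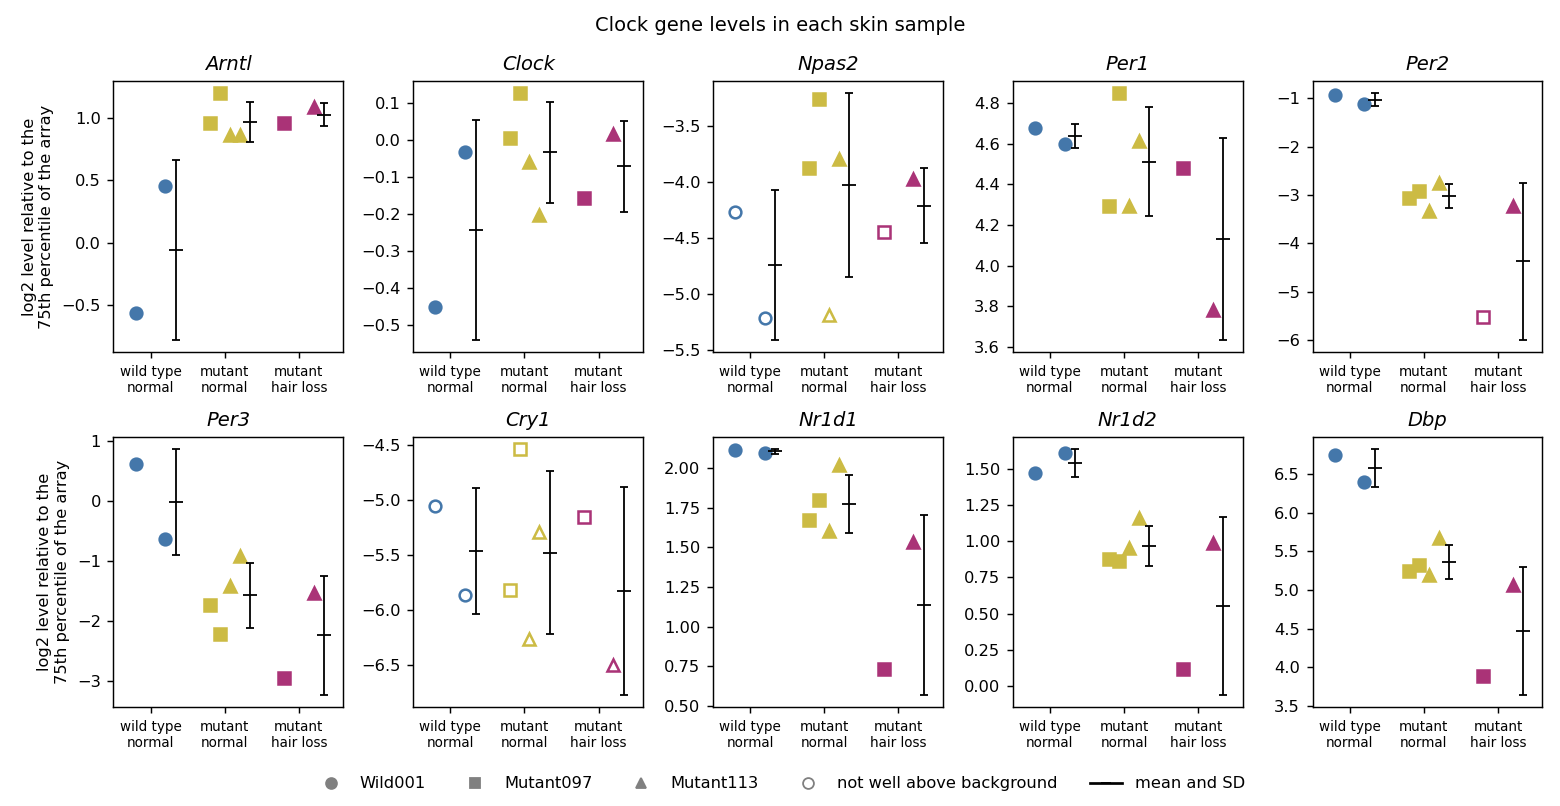
Log2 level of each clock gene relative to the 75th percentile of the array (y axis) in every sample of the 3 groups, with shapes for title numbers, open symbols for samples not well above background, and bars for mean and SD. Dbp lies at 6.75 and 6.40 in wild type and at 3.88 to 5.68 in the mutant samples, and Arntl at -0.56 and 0.46 against 0.86 to 1.2.

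The activators of the loop were described first. Arntl had a level of -0.56 and 0.46 in wild type, 0.96, 1.2, 0.86 and 0.86 in normal skin of the mutants (replicates 1 to 4), and 0.96 and 1.09 in hair loss. Here and below, values stand in the order of the replicates. The 6 mutant samples lay close together and above both wild type samples, which were 1.02 apart, against 0.34 between the highest and lowest mutant. The lower wild type value came from replicate 1, the dimmest array. The difference of mutant normal skin from wild type was 1.02, or 2.03-fold, with SE 0.28 and a limma adjusted p of 0.156, and that of hair loss was 1.08 with SE 0.32 and a limma adjusted p of 0.108. Neither passed the threshold of 0.05. Without wild type replicate 1 the differences were 0.51 and 0.57, and without replicate 2 they were 1.53 and 1.59. Hair loss differed from mutant normal skin by 0.06, with a 95% interval of -0.60 to 0.71.

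Clock, which encodes the partner of ARNTL and a histone acetyltransferase, had the smallest range of the 9 tested genes. Its 8 values ran from -0.45 to 0.13, a range of 0.58, and the groups overlapped in every comparison. In mutant normal skin it was 0.21 above wild type, with a 95% interval of -0.23 to 0.65 (limma adjusted p 0.601), and this difference was -0.001 without wild type replicate 1. Npas2, a paralogue of Clock, was near background. It was well above background on 4 arrays, of which 3 were mutant normal skin, 1 was hair loss and 0 were wild type. Its measured mean was -4.74 in wild type and -4.03 in mutant normal skin, and no fold is given because the mutant mean lies under the lowest signal that counts as well above background on the wild type arrays (-3.37 on average).

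Among the repressors, the Period genes differed from each other in behaviour. Per1, which besides its clock role responds rapidly to cAMP and glucocorticoids, was at 4.68 and 4.60 in wild type, 4.29, 4.85, 4.29 and 4.61 in normal mutant skin, then 4.48 and 3.78 in hair loss. Both hair loss values lay under wild type, while mutant normal skin spanned it. Mutant normal skin differed from wild type by -0.13 (95% interval -0.72 to 0.47) and hair loss from wild type by -0.51 (SE 0.30, limma adjusted p 0.323), or -0.16 without hair loss replicate 2 and -0.86 without replicate 1. The lowest Per1 value was that of Mutant113 hair loss, and not that of Mutant097 hair loss, which was lowest for the other clock output genes.

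Per2 was at -0.93 and -1.12 in wild type, -3.06, -2.92, -3.33 and -2.74 in normal mutant skin, then -5.52 and -3.22 in hair loss. The wild type samples stood well apart from all mutants, and hair loss replicate 1 was the single array on which Per2 was not well above background. The difference of mutant normal skin from wild type was -1.99 (SE 0.54, 3.97-fold, limma adjusted p 0.155). In hair loss the difference was -3.34, with SE 0.63 and a limma adjusted p of 0.0524. Since 1 of its samples was at background, it depended on the background correction. Under normexp, a model-based correction of the raw signal that here adds an offset of 50, it was -1.06 and called. The processed intensities of Per2 ran from 2.74 to 73.9, so an offset of that size by itself shrinks its log2 differences. Without hair loss replicate 1 it was -2.19 (limma adjusted p 0.106), and without replicate 2, where the reading at background is the only one, it was -4.49 and called (limma adjusted p 0.0117). Mutant normal skin was called for Per2 when either hair loss sample was left out. Both omissions give the same test, because a single hair loss sample adds nothing to the shared spread. The difference stays at -1.99 there, and the SD of the hair loss pair, with 1 sample at background, was 1.62. With the main background correction and all samples, neither comparison passed the threshold in the model with 3 groups. Under normexp, mutant normal skin was called as well. In a model with 1 mean for each group and title number, chosen after seeing the data, Per2 differed from wild type in the normal skin of Mutant097 by -1.97 (limma adjusted p 0.0409) and in that of Mutant113 by -2.01 (limma adjusted p 0.0189), both past the threshold, as were 0.999% and 3.26% of probes. These contrasts use the same wild type samples, and the spread behind their p-values comes only from pairs of samples that share a title number.

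Per3 is the third Period gene, and its window holds the D-boxes. It was at 0.61 and -0.64 in wild type, -1.73, -2.21, -1.42 and -0.92 in normal mutant skin, then -2.95 and -1.54 in hair loss. All mutants lay below both wild type samples, but the wild type samples were 1.24 apart. The difference was -1.56 (SE 0.53, limma adjusted p 0.210) for mutant normal skin and -2.23 (SE 0.61, limma adjusted p 0.0930) for hair loss, neither past the threshold. Without wild type replicate 1 the first was -0.93, and without hair loss replicate 1 the second was -1.52. Cry1, the partner of the PER proteins with an E-box in its window, was well above background on 0 of 8 arrays, so no difference is given.

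The nuclear receptors that repress Arntl had smaller differences from wild type. Nr1d1 was at 2.11 and 2.09 in wild type, 1.67, 1.79, 1.60 and 2.02 in normal mutant skin, then 0.74 and 1.54 in hair loss. Its groups followed the order wild type, mutant normal skin, hair loss with no overlap between any of them, but the gaps were small. The nearest mutant sample lay 0.07 under wild type, and the nearest values of mutant normal skin and hair loss were 1.60 and 1.54. Mutant normal skin differed from wild type by -0.33 (SE 0.25, limma adjusted p 0.525) and hair loss from wild type by -0.97 (SE 0.29, limma adjusted p 0.105). Nr1d2 was at 1.47 and 1.61 in wild type, 0.88, 0.87, 0.95 and 1.16 in normal mutant skin, then 0.12 and 0.99 in hair loss. Mutant normal skin and hair loss overlapped, and both lay under wild type. The differences from wild type were -0.58 (SE 0.25, limma adjusted p 0.296) and -0.99 (SE 0.29, limma adjusted p 0.105), and none of these 4 passed the threshold. Without hair loss replicate 1 the hair loss differences were -0.57 for Nr1d1 and -0.55 for Nr1d2. Without replicate 2 they were -1.37 (limma adjusted p 0.0558) and -1.42 (limma adjusted p 0.0458), the latter past the threshold.

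Dbp, the output activator at D-boxes, had the one call. Its brighter probe (A_55_P2032081) was at 6.75 and 6.40 in wild type, 5.25, 5.33, 5.20 and 5.68 in normal mutant skin, then 3.88 and 5.06 in hair loss. The 3 groups did not overlap. Mutant normal skin was 2.32-fold lower than wild type (difference -1.22, SE 0.33, limma adjusted p 0.152), which did not pass the threshold. Hair loss was 4.30-fold lower than wild type (difference -2.11, SE 0.38, 95% interval -2.98 to -1.23, limma adjusted p 0.0473), which did. The second Dbp probe gave -1.30 and -2.22 for the same comparisons, with limma adjusted p 0.146 and 0.0454. Over the 19 alternatives tried, the Dbp difference between hair loss and wild type ran from -2.69 to -1.52 and the adjusted p from 0.0259 to 0.266, and the call held in 7 of them. By limma it was lost without wild type replicate 1 (adjusted p 0.221) or 2 (0.0744), without hair loss replicate 1 (0.158) and without any 1 mutant normal skin sample, which enters only through the shared spread (0.0505 to 0.0665). It was kept without hair loss replicate 2. Both hair loss samples were in row 1 of the slide and both wild type samples in row 2, so slide row and group cannot be told apart directly. With the row as a block the difference was -1.95 (limma adjusted p 0.114). Only mutant normal skin lay in both rows, with Mutant097 in row 1 and Mutant113 in row 2. The row block therefore cannot be told apart from the title number.

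**Figure D3:**
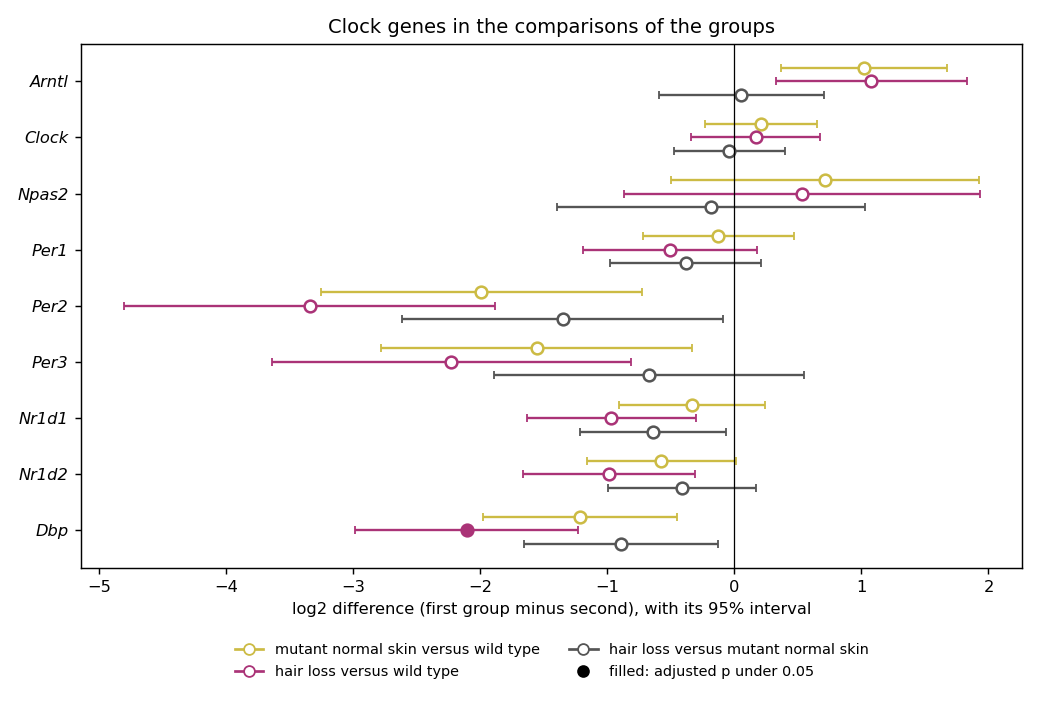
Log2 difference of each tested clock gene (x axis) in the comparisons of the 3 groups, with 95% intervals from limma and filled points for an adjusted p under 0.05. Dbp in hair loss against wild type (-2.11) is the only filled point, and the intervals of Per2, Per3, Nr1d1, Nr1d2 and Arntl for the same comparison also lie on 1 side of 0.

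By comparison, the counts were as follows. Between mutant normal skin and wild type, limma called 0 of the 9 clock genes, against 0.694% of all tested probes, and 4 of 9 had an unadjusted p under 0.05, against 17.2% of probes. Between hair loss and wild type it called 1 of 9, which was lower, against 0.427% of probes called lower and 1.42% called in either direction. There 6 of 9 had an unadjusted p under 0.05, against 24.8% of probes. Of the 9 genes, 5 were lower and 1 higher without overlap in mutant normal skin than in wild type, against 14.8% and 13.6% of probes, and 6 were lower and 1 higher in hair loss, against 28.5% and 24.8%. The median difference of the 9 genes was -0.33 and -0.97 in these comparisons, against -0.04 and -0.06 over all tested probes. Both comparisons share the wild type samples. When arrays were centred on their median instead, all probes moved up by 0.16 and 0.22 in them, and Dbp in hair loss was then at -1.88 and still called, as was Per2. That centring also turned the small Per1 difference of mutant normal skin to 0.03, and it moved the share of higher probes among the calls between hair loss and wild type from 69.9% to 84.2%.

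Hair loss skin was next compared with normal skin of the same mutants. Limma called 0 of the 9 clock genes, against 0% of all tested probes. Dbp (-0.89, SE 0.33), Nr1d1 (-0.64, SE 0.25) and Per2 (-1.35, SE 0.54) had an unadjusted p under 0.05, as had 5.20% of probes, with limma adjusted p from 0.928 to 0.936. Dbp and Nr1d1 were lower without overlap, as were 6.68% of probes, and 0 of the 9 were higher without overlap, as were 5.73%. The median of the 9 genes was -0.41, against -0.01 over all probes.

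The hair loss samples differed from each other. In Mutant097, hair loss lay below its normal skin by -1.40 for Dbp, -2.52 for Per2, -0.998 for Nr1d1, -0.75 for Nr1d2 and -0.98 for Per3. In Mutant113 the same differences were -0.38, -0.18, -0.28, -0.07 and -0.37. Per1 ran the other way round, at -0.09 in Mutant097 and -0.67 in Mutant113. Each number has a single hair loss sample. In Mutant097 limma called 1 of the 9 genes, Per2, against 0.628% of probes. That arm is 1 reading not above background, so the size of the Per2 difference is not measured there. Tested directly, the difference between both hair loss effects was 2.34 for Per2 (SE 0.43, limma adjusted p 0.185, and -0.01 under normexp), which uses the same reading, and 1.02 for Dbp (SE 0.41, limma adjusted p 0.531). Of the 9 genes 0 passed, against 0% of probes, and 1 of 9 had an unadjusted p under 0.05, against 9.50% of probes. Without hair loss replicate 1, the Per3 and Nr1d2 differences between hair loss and mutant normal skin turned to 0.03 and 0.02, and that of Dbp shrank to -0.30.

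**Figure D4:**
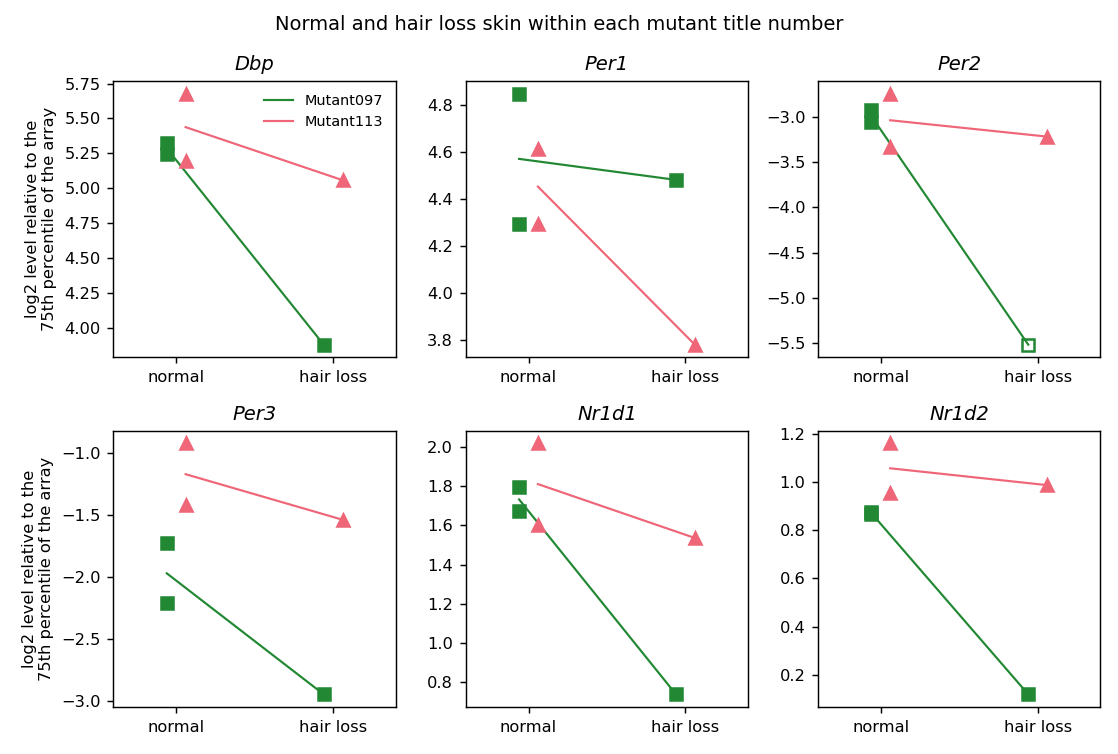
Levels of 6 clock genes (y axis, log2, with the array's 75th percentile at 0) in normal and hair loss skin of Mutant097 and Mutant113, with lines joining the means and an open symbol where the gene was not well above background. Dbp lies at 5.25 and 5.33 in normal skin and 3.88 in hair loss of Mutant097, and at 5.20 and 5.68 against 5.06 in Mutant113, while for Per1 the steeper line is that of Mutant113.

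The title numbers also differ in sex-linked expression. Xist was well above background on 3 of 3 Mutant113 arrays and on 0 of 3 Mutant097 and 0 of 2 wild type arrays. Y-linked Ddx3y and Eif2s3y were well above background on 3 of 3 Mutant097, 2 of 2 wild type and 0 of 3 Mutant113 arrays. Within both mutant groups, sex and title number therefore cannot be told apart. Between the normal skin of Mutant113 and that of Mutant097, limma called 0 of the 9, against 0.266% of probes, and 0 had an unadjusted p under 0.05, against 15.8%. The Dbp difference was 0.15 (95% interval -0.44 to 0.75) and that of Per2 -0.05 (-0.66 to 0.57). The difference of Per3 was 0.80 (-0.34 to 1.94, limma adjusted p 0.457). The largest in size was that of Npas2, near background, at -0.93 (-2.34 to 0.48, limma adjusted p 0.481). Normal skin of Mutant113 shares slide row 2 with wild type but differs from it in the sex-linked genes. Sex and genotype cannot be told apart in that comparison. Within that row, Dbp differed from wild type by -1.14 (limma adjusted p 0.0772), Arntl by 0.91 (limma adjusted p 0.242) and Per3 by -1.16 (limma adjusted p 0.251), in the same directions as in Mutant097, at -1.29, 1.13 and -1.96. Both sets use the same wild type samples, and the spread in this model comes only from pairs of samples that share a title number.

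The letters A and B in the titles of normal skin samples, whose meaning is not stated, separated no clock gene. With the title number as a block, limma called 0 of 9 genes, against 0% of probes, and 0 had an unadjusted p under 0.05, against 5.01%. The Dbp difference, A minus B, was 0.07 (95% interval -0.50 to 0.64), that of Nr1d1 0.17 (-0.28 to 0.62) and that of Arntl 0.42 (-0.24 to 1.08).

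The wider clock pathway was read from a list of 27 genes, of which 25 were tested. Rorb and Fbxl21 did not pass the filter. In normal skin of the mutants 0 of the 25 were called against wild type, compared with 0.694% of probes, with 10 above and 15 below 0 and a median of -0.22, against -0.04 over all probes. In hair loss 0 were called higher and 1 lower than wild type, compared with 0.993% and 0.427% of probes, with 8 above and 17 below 0 and a median of -0.34, against -0.06 over all probes. Against normal skin of the mutants, hair loss had 0 called, compared with 0% of probes, and a median of -0.05, against -0.01. Across both kinds of mutant skin, 8 of 25 were lower than wild type without overlap and 5 of 25 higher, against 12.5% and 11.8% of all probes.

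The called gene was Ciart, with the 3 E-boxes shown above. It was at -0.32 and -0.58 in wild type, -1.65, -1.61, -1.53 and -1.37 in normal mutant skin, then -2.13 and -1.65 in hair loss. All mutant samples lay at least 0.79 under the lower wild type sample. Ciart was 2.71-fold lower in hair loss than in wild type (difference -1.44, SE 0.23, limma adjusted p 0.0342). Its difference in normal skin of the mutants was -1.09 with SE 0.20 and a limma adjusted p of 0.0648, not past the threshold.

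The D-box factors related to Dbp and the repressor that competes with them lay on opposite sides of wild type. Tef, an activator of the same family as Dbp, was at 6.39 and 6.32 in wild type, 5.58 to 5.91 in normal mutant skin, then 4.55 and 5.37 in hair loss. Hlf, the third of this family, was at 2.52 and 1.99 in wild type, 1.52 to 1.96 in normal mutant skin, then 0.54 and 1.67 in hair loss. Nfil3, the repressor at D-boxes, was at 0.10 and 0.83 in wild type, 1.84 to 2.59 in normal mutant skin, then 2.54 and 2.08 in hair loss. The gap between wild type and the nearest mutant sample was 0.41 for Tef, 1.01 for Nfil3 and 0.03 for Hlf. The differences between hair loss and wild type were -1.39 for Tef (limma adjusted p 0.0589), -1.15 for Hlf (0.129, by limma) and 1.85 for Nfil3 (limma adjusted p 0.0524), none past the threshold. Nfil3 in mutant normal skin was 1.67 above wild type (limma adjusted p 0.0636).

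Of the remaining genes, those with the largest differences did not pass either. Noct, a clock output gene of the deadenylase family, was above wild type by 0.90 in mutant normal skin and 1.38 in hair loss (limma adjusted p 0.196 and 0.0785). Csnk1e, a kinase that acts on PER proteins, was above wild type by 0.52 and 0.83 (limma adjusted p 0.253 and 0.0980). Bhlhe41, a repressor at E-boxes, was below by -1.12 and -1.21, but wild type replicates 1 and 2 were at -0.57 and -2.08, and the latter lay within the mutant range. Por, the P450 reductase gene, was below wild type by -0.78 in mutant normal skin (limma adjusted p 0.158). Among the most negative differences of hair loss from normal skin of the mutants were those of Tef (-0.82) and Cry2 (-0.67), a partner of the PER proteins. Their limma adjusted p were 0.765 and 0.791. The largest positive values there were Noct (0.48), Csnk1e (0.31) and Nfil3 (0.18).

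**Figure D5:**
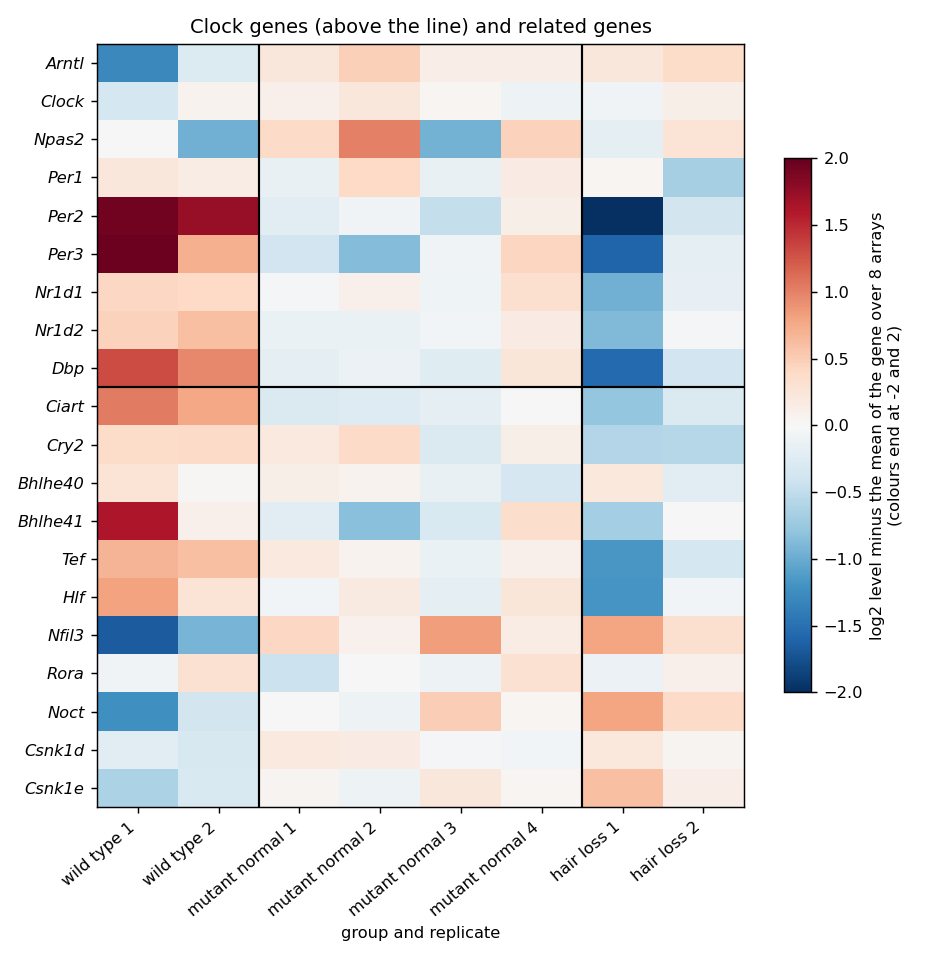
Log2 level of the tested clock genes (above the line) and selected related genes of the wider list, each minus its mean over the 8 arrays (colour, log2 units, ending at -2 and 2), by group and replicate (x axis). The related genes were picked by hand from the 25 tested, and the rest of that list is not shown. Dbp, Per2, Per3 and Ciart are red in both wild type samples and paler or blue in the mutants, Arntl and Nfil3 are blue in wild type, and hair loss replicate 1 is the bluest column for Dbp, Tef and Hlf.

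The likeness of other genes to Dbp and Arntl was measured as the root mean square difference between profiles over the 8 arrays, each centred on its own mean, among 14280 other named genes. The nearest to Dbp were Aass (0.20), Map1a (0.23), Gstm4 (0.24), Abca8a (0.26) and Ogn (0.27). Aass, an enzyme of lysine breakdown, was at -1.73 and -1.99 in wild type and -3.98 in hair loss replicate 1, and ran between -3.02 and -2.72 in the other mutant samples. Among the clock genes Per3 came nearest to Dbp (0.38, rank 61), followed by Nr1d2 (rank 129), Nr1d1 (rank 173) and Per2 (rank 517), while Arntl was at rank 12999. The nearest to Arntl were Intu (0.14), Nipal4 (0.16), Sowahb (0.16), Tmem231 (0.17) and Vstm5 (0.17), each lowest in wild type replicate 1. The clock gene nearest to Arntl was Clock (rank 1610). Profiles were centred but not scaled, so the ranks depend on the size of the changes as well as on their pattern. Per2 ranged over 4.58 and Dbp over 2.87, while Clock ranged over 0.58 and Arntl over 1.76. The genes share arrays and their brightness, so these ranks describe the 8 arrays only.

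Genes that respond to handling or stress were read beside these results, because Per1 and Per2 are also targets of such signals. Of the 12 genes of that list, all were tested, and 1, the immediate early gene Egr1, was called in mutant normal skin and in hair loss against wild type, as were 0.694% and 1.42% of probes. It was at 1.79 and 2.6 in wild type, 4.66 to 4.98 in normal mutant skin, then 5.13 and 4.13 in hair loss, higher than wild type by 2.64 and 2.44 (limma adjusted p 0.0193 and 0.0319). Of the 12 genes, 5 were higher in all 6 mutant samples than in both wild type samples, as were 11.8% of probes: Egr1, Fos, Jun, Ier2 and Sgk1. The immediate early genes Nr4a1 and Dusp1 overlapped, with 3.19 and 2.37 in hair loss replicate 2 against up to 3.76 and 2.5 in wild type. Of the glucocorticoid targets, Sgk1 had means of 3.40 in wild type, 3.78 in mutant normal skin and 4.15 in hair loss. Fkbp5, Tsc22d3 and Zbtb16 had means of 2.07, 4.99 and 2.43 in wild type, 1.87, 4.68 and 1.77 in normal skin of the mutants, and 1.62, 4.01 and 1.05 in hair loss. The summed log2 level of the list was 7.96 to 8.11 in wild type, 8.31 to 8.40 in mutant normal skin and 7.98 to 8.61 in hair loss. The part of these signals in the clock gene results was not tested.

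Cell type markers varied as well. The summed log2 level of 7 tested proliferation genes was 2.55 to 3.11 in wild type, 4.01 to 5.69 in mutant normal skin and 4.78 to 5.4 in hair loss. Skeletal muscle, which has a strong clock of its own, was at 10.1 to 10.2 in wild type, 8.76 to 10.2 in mutant normal skin and 7.58 to 9.04 in hair loss over 9 genes. Fibroblast markers (4 tested) were at 10.2 to 10.8, 8.73 to 10.2 and 9.16 to 9.66, and adipocyte markers (6 tested) at 8.54 to 8.56, 8.25 to 8.82 and 8.43 to 8.81 in the same order. Myeloid markers (4 tested) were at 6.87 to 7.17 in wild type, 5.79 to 6.53 in mutant normal skin and 5.93 to 6.16 in hair loss, lower in all mutant samples. T and NK cell markers (4 tested) were at 3.56 to 4.08, 3.37 to 3.995 and 3.48 to 3.60, and melanocyte markers (5 tested) at 4.36 to 4.60, 3.66 to 6.29 and 5.02 to 6.05. The part of these lists in the clock gene results was not tested.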

How the data were processed

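Each of the 8 skin samples was hybridised to 1 single-colour Agilent array. Per the file headers, Feature Extraction 11.5.1.1 gave each spot an intensity that the authors deposited after background subtraction and detrending within the array. The deposited matrix holds log2 values. On all 55603 probes compared it lay within 0.01 of log2 intensity after 1 shift per array, near the 75th percentile.

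Spots flagged as outliers (118 to 210 per array) were left out and 0 were saturated. Log2 processed intensity was averaged over the spots of a probe, and the 75th percentile of the array was subtracted. Probes well above background on at least 2 arrays were tested (30417). Symbols came from RefSeq accessions (GRCm38.p6 table), which named 19195 tested probes. The brightest probe stood for a gene. Tests were two-sided and used linear models of limma 3.58.1 (R 4.3.3) with Benjamini-Hochberg adjustment over all tested probes, and scripts were tested on simulated data. The files hold no mean signal, so normexp (offset 50) used median signals.

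Members and lists were chosen with earlier results of these data known. All members were named. Of the wider list, called genes and the 3 largest differences each way were named (1 is not reported here), and for Dbp and Arntl the 5 genes with the smallest root mean square difference. The alternatives were background correction, scaling, filter, probe choice, blocks and omission of single samples. The hybridisation number, 2 to 4 per group, limits precision.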

Additional observations from a re-analysis of the deposited data

How the results depend on the processing

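Of the clock genes, the number called between hair loss and wild type was 1, and it was 2 (Dbp and Per2) under normexp, with the median of each array and with the title number as a replicate block. It was 0 under quantile normalization, with no filter, with the slide row as a block, with 1 mean per title number and group and with only the groups compared, and 0 to 3 when single samples were left out. Between mutant normal skin and wild type the count was 0. It was 1 (Per2) under normexp, with only the groups compared and with Mutant097 or Mutant113 alone, and 0 to 1 when single samples were left out. Between hair loss and normal skin of the mutants it was 0, and 1 (Per2, whose single hair loss reading was not above background) within Mutant097 alone. Comparisons within title numbers or slide rows were chosen after seeing the data. The title number as a block changed no other call of a clock gene. Over probes, the Mutant097 minus Mutant113 difference in hair loss correlated with that in normal skin at 0.13, with 2 pairs. The cause of these changes was not tested.

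Signs turned for small differences. The offset added under normexp shrinks the log2 differences of dim genes such as Npas2 and Per2. Under normexp, Npas2 was at -0.119 and -0.155 in mutant normal skin and hair loss against wild type, -0.002 for letter A against B and -0.074 for the difference in hair loss effect. There Per2 was at -0.007 and Per3 at -0.068 for the difference in hair loss effect, and Per1 at 0.06 for mutant normal skin against wild type. With array medians, Clock was at 0.025 between hair loss and normal mutant skin and Per1 at 0.034 between the latter and wild type. With the slide row as a block, Arntl was at -0.053 (also in row 1 alone) between hair loss and normal mutant skin, and Clock at -0.027 and Npas2 at -0.398 between hair loss and wild type. That block cannot be told apart from the title number. Between hair loss and normal skin, Arntl was at -0.118 within Mutant097, and Clock at 0.147 and Npas2 at 0.521 within Mutant113.

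Without single samples, differences between hair loss and normal mutant skin ran from -0.01 to 0.132 for Arntl, -0.125 to 0.048 for Clock, -0.57 to 0.077 for Npas2, -1.375 to 0.033 for Per3 and -0.847 to 0.024 for Nr1d2. Clock ran from -0.001 to 0.42 for mutant normal skin and -0.04 to 0.382 for hair loss against wild type. For letter A against B the ranges were -0.011 to 0.272 for Clock, -0.161 to 1.013 for Npas2, -0.024 to 0.362 for Per2, -0.864 to 0.007 for Per3 and -0.136 to 0.28 for Dbp. Signal near background limits Npas2 and Cry1 on most arrays and Per2 in hair loss.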
